A study of Homo sapiens with 12 samples.

Results

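Histone genes were examined by 3′ sequencing of polyadenylated RNA in CAMA-1, a human breast cancer line in long use that is positive for the oestrogen receptor (ER). The members were all rows of the count table whose symbol starts with H1-, H2AC, H2BC, H3C, H4C, H2AZ or H3-3, together with H2AX, after 24 rows whose symbols name pseudogenes (1480 reads in all) had been removed. The rule found 77 of 60612 named rows. Of these, 75 are protein-coding (66 replication-dependent histone genes, 8 variant or replication-independent genes, and H2AX), and the other two, H1-10-AS1 and H2AZ1-DT, are non-coding neighbours. Treatment lasted 5 days per the study's methods and consisted of vehicle (DMSO), 100 nM abemaciclib, which inhibits CDK4/6, 5 nM fulvestrant, which degrades ER, or both drugs (combination), whose doses the labels leave out. There were 3 biological replicates in each of 4 groups, so all comparisons concern a single cell line.

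Histones package DNA into nucleosomes, in which pairs of the core histones H2A, H2B, H3 and H4 form the particle and linker histone H1 binds the DNA between particles. The replication-dependent genes lie in clusters and are transcribed mainly in S phase, when new chromatin is assembled. Their mRNAs are unusual in that most end in a conserved stem-loop instead of a poly(A) tail: stem-loop binding protein (SLBP) holds the stem-loop and the U7 ribonucleoprotein directs the cut just after it. Variant histones such as H2A.Z and H3.3 are expressed throughout the cell cycle. Their genes lie outside the clusters and give ordinary polyadenylated mRNAs. H2AX, the variant phosphorylated next to DNA breaks, can produce both kinds of mRNA. Because the libraries were primed on poly(A) tails, a count of a replication-dependent gene reflects only those transcripts that the primer captured, and not the whole histone mRNA of the cell.

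Total counts ranged from 3299119 to 5164667 per library. Of the 75 coding members, 53 had at least 1 read and 29 passed the filter on low counts (22 replication-dependent genes, 6 variant genes and H2AX). The other 46 coding members comprised 22 genes with no read and 24 with a median of 5 reads over all 12 libraries together, the highest being H2AC11 with 85. H2B genes passed the filter in 9 of 17 cases, H2A in 4 of 16, H4 in 4 of 14, H1 in 3 of 6 and H3 in 2 of 13. Copies with near-identical sequence, such as H2AC18 and H2AC19, H3C14 and H3C15, or H4C14 and H4C15, held 0 to 20 reads each, and reads that match several copies may have been dropped or split. The label was checked against luminal markers, and all 7 listed (ESR1, GATA3, FOXA1, KRT8, KRT18, KRT19 and EPCAM) were detected. Of 11 markers of other cell types, 5 had no read and only COL1A1 passed the filter, with group means from 16.1 to 22.8 CPM (counts scaled to 1e+06 per library). The sum of these 11 markers was 14.8 to 18.8 CPM in DMSO, 20.6 to 26.8 in abemaciclib, 21 to 27.1 in fulvestrant and 16.5 to 22.6 in the combination, and its part in the histone results was not tested. Fulvestrant replicate 3 stood apart from the other fulvestrant libraries, and results that change without it are given with that value.

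The sequences at the ends of the genes are shown first, because the libraries were primed on poly(A) tails. Whether the annotated ends set which transcripts were captured was not tested. Each of the 66 replication-dependent genes, and H2AX, carried the stem-loop within 120 bases after the stop codon in the hg38 reference, whereas it was not found there in the variant genes. The most frequent core occurred in 38 members. The windows below give 26 bases of mRNA-sense sequence, with the 16-base stem-loop in capitals, for genes that fell (H4C3, H1-4, H2AX) and genes that rose (H4C8, H3C10) after treatment.
H4C3 (chr6:26104312-26104337, plus strand): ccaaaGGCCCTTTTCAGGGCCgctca
H4C8 (chr6:26285126-26285151, minus strand): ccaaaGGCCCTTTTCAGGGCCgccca
H1-4 (chr6:26157090-26157115, plus strand): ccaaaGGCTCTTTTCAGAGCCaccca
H3C10 (chr6:27810511-27810536, plus strand): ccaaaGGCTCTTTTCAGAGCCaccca
H2AX (chr11:119094893-119094918, minus strand): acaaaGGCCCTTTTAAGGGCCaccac
H4C3 and H4C8 shared the same stem-loop although they moved in opposite directions, and H1-4 and H3C10 had the same 26 bases throughout.

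Among the replication-dependent genes shown, the annotation differed in whether any transcript runs on past the stem-loop. For H4C3, H1-4 and H2AC20 the annotated transcript stops 5 bases after the stem-loop. In contrast, H3C10 has a transcript that ends 769 bases beyond it, H2BC21 1729, H3C6 1862, H4C8 7522, H2BC5 12747 and H2AC6 14432, in part through splicing to downstream exons. The last 30 bases of such transcripts are shown with the poly(A) signal in capitals.
H2AC6 (chr6:26139087-26139116, plus strand): tAATAAAaggtaatgcaaagggagaggaaa
H2BC5 (chr6:26171320-26171349, plus strand): taattAATAAAatctgcggagaattgtaaa
H4C8 (chr6:26277609-26277638, minus strand): agaattgtgaaaaAATAAAtgtttaagcca
H3C10 (chr6:27811271-27811300, plus strand): atgactaAATAAAatctgtataatccccac
H2AX (chr11:119093874-119093903, minus strand): attttATTAAAggattgttttttttttaaa
H2AX combines both features, with a stem-loop and an annotated transcript that ends 1024 bases beyond it at an ATTAAA signal. Its counts nevertheless fell with every treatment. Of the 22 replication-dependent genes tested, 10 had an annotated transcript that ran more than 100 bases past the stem-loop. Among the 44 that were not tested, the number was 4. The division was made with the values known, so it is used only to describe them, and counts per gene do not show where in a gene the reads lay.

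The response of the histone genes to each single drug was asked first. With abemaciclib, 8 of the 29 coding members tested were higher than in DMSO (27.6%) and 14 were lower (48.3%), compared with 20.5% and 20.7% of all 11803 genes. Fulvestrant raised 13 members (44.8%) and lowered 10 (34.5%), against 25.3% and 25.7% of all genes. With the combination 11 were higher (37.9%) and 10 were lower (34.5%), where the background was 27.7% and 27.5%. The median log2 fold change of the 29 members was -0.28 with abemaciclib, 0.25 with fulvestrant and -0.01 with the combination, and that of all genes lay between 0.00 and 0.01. Therefore, the share of lower members exceeded the background mainly with abemaciclib, and the share of higher members mainly with fulvestrant, while members moved strongly in both directions. These 3 comparisons share their DMSO libraries. Of the 29 members, 4 passed the filter on low counts through DMSO alone, so their fall was in part fixed by it. H2BC6, H4C5 and H2BC12 could pass only through treated libraries, so a rise of these genes was in part fixed in the same way. In bulk RNA, fewer cells in S phase and less histone RNA per cell cannot be told apart.

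**Figure D1:**
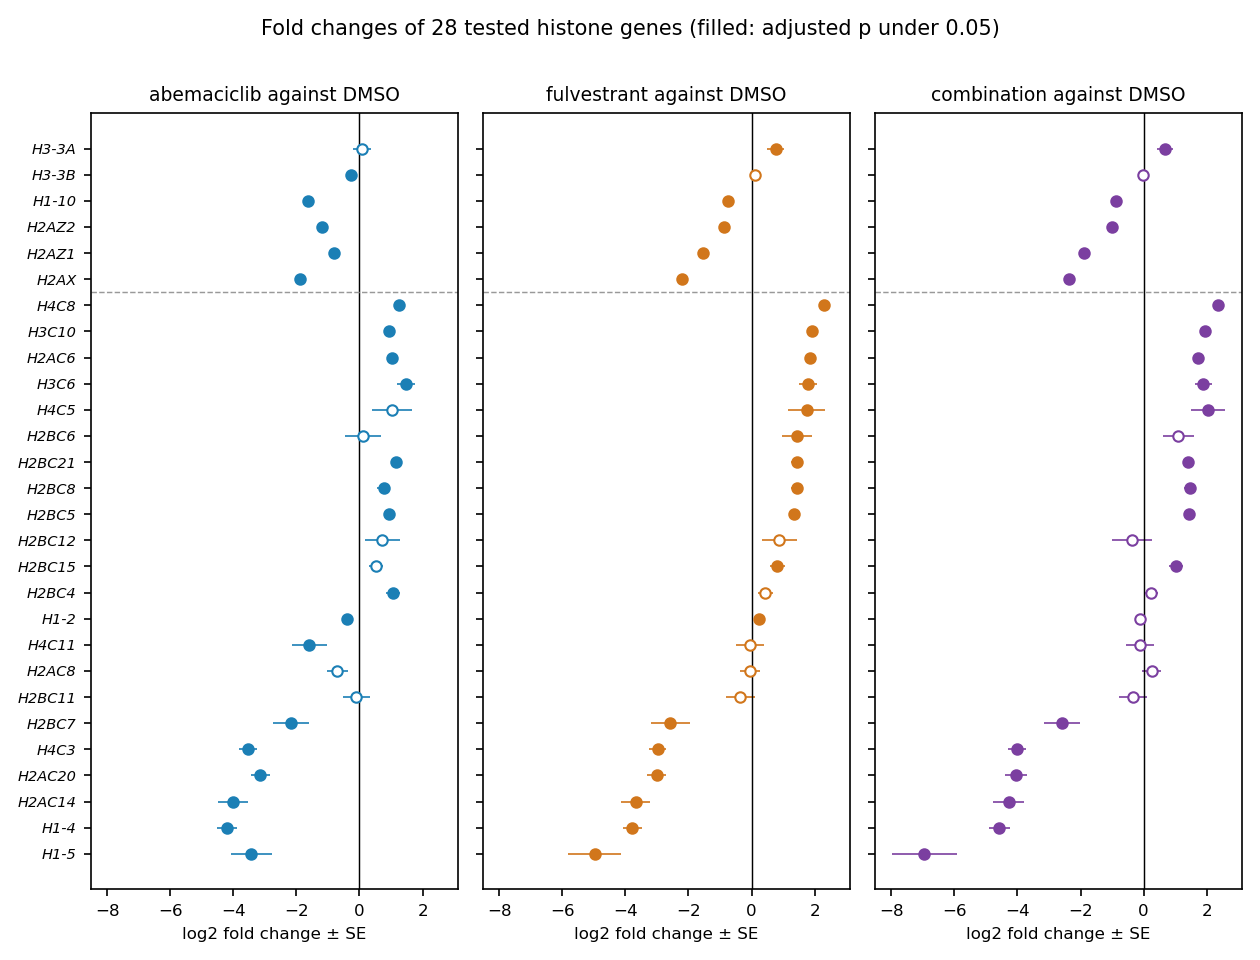
Log2 fold change (x axis, ± SE) of 28 tested histone genes (y axis; replication-dependent genes below the dashed line, variant genes and H2AX above it) in each treated group against DMSO, 3 libraries per group. Filled points passed an adjusted p of 0.05. H4C8, H3C10 and H2AC6 lie to the right of 0 in all 3 panels, and H4C3, H1-4 and H2AX to the left. The fitted values of H1-5 rest on groups at or near 0 counts and depend on the model.

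Among the replication-dependent genes most reads came from H4C3, which encodes histone H4. In DMSO its 3 libraries held 1280, 1030 and 809 CPM. The abemaciclib libraries held 89.6, 77.0 and 103 CPM, those with fulvestrant 99.6, 110 and 184, and those with the combination 78.2, 58.3 and 57.3. Every treated library lay far below every DMSO library, while the DMSO libraries themselves differed more than those of the abemaciclib group. The log2 fold change was -3.53 ± 0.28 (SE) with abemaciclib (adjusted p = 1.2e-05, edgeR quasi-likelihood test), -2.98 ± 0.27 with fulvestrant (1.9e-05) and -4.01 ± 0.29 with the combination (3.1e-06). H4C3 took 64.7 to 72.4% of all replication-dependent histone reads in DMSO, compared with 12.9 to 17.6% in abemaciclib, 11.2 to 19.2% in fulvestrant and 7.49 to 9.07% in the combination. The gene lies at chr6:26103933-26104337 within the span of H2BC4, which is annotated on the opposite strand, and the counting strand is not stated. Its annotated transcript also holds a stretch with 9 A in 10 bases, the highest among the 22 genes, whose values ranged from 5 to 9. The part of such a stretch in priming was not tested. Other tested genes overlap further genes annotated on their own strand in GENCODE v44. Among them are H2AC6, H2BC5, H2BC6, H3C6, H4C5, H1-4, H2BC7 and H2AC8. The part of these overlaps in the counts was not tested.

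Further genes with only short annotated ends fell with it. For H1-4, H2AC14, H1-5 and H2BC7 the fall was in part fixed by the filter on low counts, which they passed through DMSO alone. H1-4, a linker histone, had 24.9, 19.0 and 19.2 CPM in DMSO, and every treated library held between 0.564 and 2.05 CPM. Its log2 fold changes were -4.20 ± 0.32 with abemaciclib (adjusted p = 3.0e-11), -3.78 ± 0.31 with fulvestrant (5.7e-11) and -4.57 ± 0.33 with the combination (3.3e-12). Treated and DMSO libraries did not overlap. H2AC20, an H2A gene of the chromosome 1 cluster, had 22.9, 19.6 and 19.2 CPM in DMSO and 0.207 to 2.87 CPM in the 9 treated libraries. Its log2 fold changes were -3.14 ± 0.31 with abemaciclib, -3.01 ± 0.31 with fulvestrant and -4.05 ± 0.34 with the combination (largest adjusted p = 4.2e-09). H2AC14, another H2A gene, held 12.2, 8.17 and 6.61 CPM in DMSO and at most 1.14 CPM in any treated library. Its log2 fold changes were -4.01 ± 0.47 and -3.67 ± 0.46 with the single drugs. In the combination H2AC14 was at the floor, taken as no library above 3 counts, so it was at least 14.1-fold lower than in DMSO. H1-5, a second linker histone, averaged 3.59 ± 1.27 CPM (SD, n = 3) in DMSO. It was at the floor in every treated group, at least 5.38-fold lower with abemaciclib, 4.78-fold with fulvestrant and 5.64-fold with the combination. H2BC7, an H2B gene, averaged 3.11 ± 0.775 CPM in DMSO with log2 fold changes of -2.17 ± 0.56 with abemaciclib and -2.57 ± 0.61 with fulvestrant, and was at least 4.89-fold lower with the combination. H4C11 was called lower only with abemaciclib (-1.59 ± 0.55, adjusted p = 0.021), from 2.34 ± 0.306 to 0.793 ± 0.668 CPM. That call was lost without DMSO replicate 1 or 2, without abemaciclib replicate 1 or 2, and with DESeq2.

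**Figure D2:**
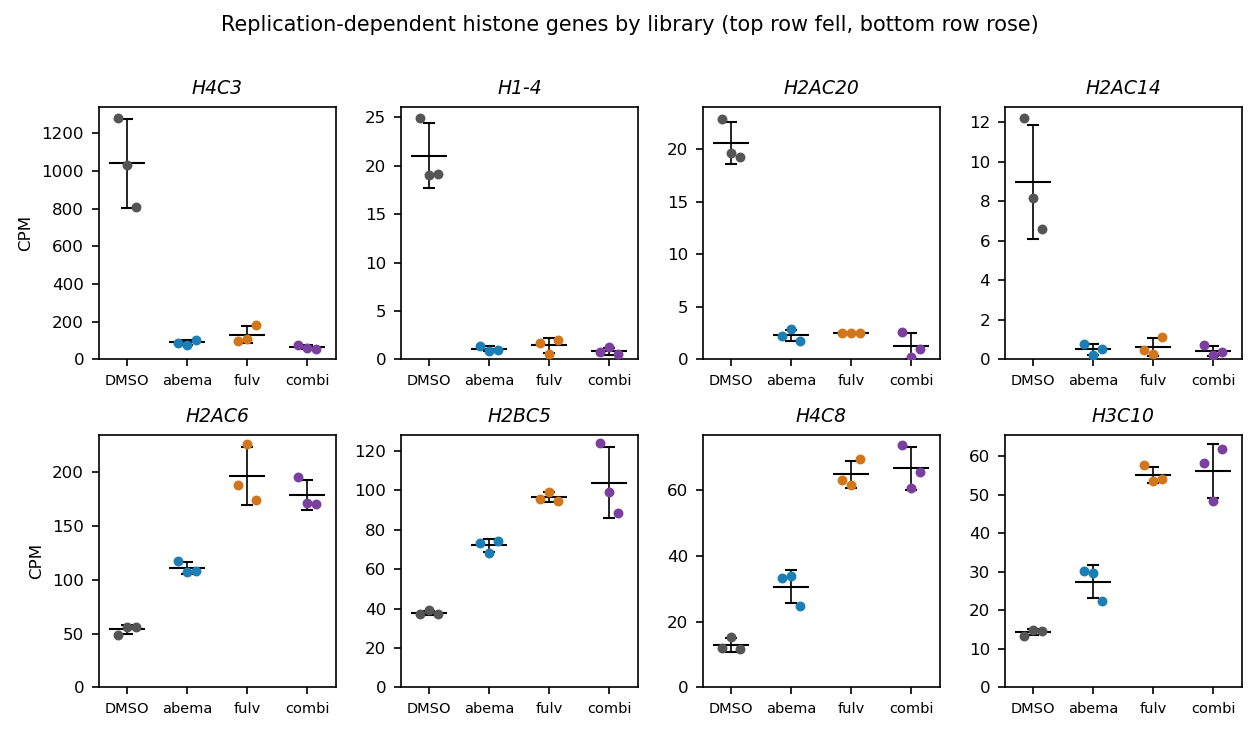
CPM on TMM-scaled library sizes (y axis) of 8 replication-dependent histone genes in each library (points), by group (x axis), with the mean (line) and SD (bars) of 3 libraries. The axes start at 0 and differ between panels. H4C3 falls from 1040 CPM in DMSO to 64.6 in the combination, and H4C8 rises from 12.9 to 66.8.

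Other replication-dependent genes were higher after each treatment. H2AC6, an H2A gene, had 49.0, 56.4 and 56.4 CPM in DMSO, 117, 107 and 108 with abemaciclib, 188, 226 and 174 with fulvestrant, and 195, 171 and 170 with the combination. The DMSO libraries were lowest, abemaciclib lay between, and fulvestrant and combination overlapped. The log2 fold change was 1.03 ± 0.10 with abemaciclib (adjusted p = 4.4e-09), 1.85 ± 0.10 with fulvestrant (1.2e-14) and 1.72 ± 0.10 with the combination (3.3e-14). H4C8 encodes the same histone H4 as H4C3. It had 11.9, 15.4 and 11.6 CPM in DMSO, 33.4, 34.0 and 24.8 with abemaciclib, 63.3, 61.8 and 69.7 with fulvestrant, and 73.9, 60.8 and 65.6 with the combination. Its order of groups was that of H2AC6, with log2 fold changes of 1.24 ± 0.15 (adjusted p = 2.8e-07), 2.31 ± 0.15 (2.4e-13) and 2.35 ± 0.14 (1e-13). The H3 gene H3C10 had 13.4, 15 and 14.7 CPM in DMSO, 30.2, 29.6 and 22.5 with abemaciclib, 57.6, 53.6 and 54.2 with fulvestrant, and 58.2, 48.4 and 61.9 with the combination. The log2 fold changes were 0.93 ± 0.15 (adjusted p = 1.3e-05), 1.93 ± 0.14 (5e-12) and 1.96 ± 0.14 (2.3e-12). Again no treated library overlapped DMSO.

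H2B genes rose as well. H2BC5 had 37.4, 39.1 and 37.4 CPM in DMSO, 73.4, 68.4 and 74.5 with abemaciclib, 95.6, 99.3 and 94.6 with fulvestrant, and 124, 99.0 and 88.7 with the combination. It rose by 0.92 ± 0.11, 1.34 ± 0.11 and 1.45 ± 0.11 on the log2 scale, in that order of treatments (largest adjusted p = 1.8e-07). H2BC21 had 11.6, 11.4 and 13.8 CPM in DMSO, and the treated libraries held 22.7 to 42.6 CPM with the 3 treated groups overlapping each other. Its log2 fold changes were 1.17 ± 0.18, 1.44 ± 0.18 and 1.42 ± 0.18 (largest adjusted p = 8.7e-06). H2BC8 rose from 8.18 ± 1.21 CPM to 13.9 ± 3.33 with abemaciclib, 22 ± 2.26 with fulvestrant and 22.6 ± 1.21 with the combination (largest adjusted p = 0.0029). This gene has no annotated transcript more than 18 bases past its stem-loop. H3C6, an H3 gene, rose from 2.89 ± 0.554 CPM to 8.00 ± 1.97, 10.2 ± 2.46 and 10.8 ± 0.797 (largest adjusted p = 0.00016).

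A further 3 genes passed the test with fulvestrant but not with abemaciclib. H2BC15 went from 5.95 ± 1.00 CPM in DMSO to 10.7 ± 0.0524 with fulvestrant (adjusted p = 0.0044) and 12.4 ± 0.937 with the combination (0.00028), and its value with abemaciclib was 8.74 ± 2.38 (0.073). H4C5, an H4 gene with a short annotated end, was low throughout, at 0.774 ± 0.535 CPM in DMSO, 2.53 ± 0.766 with fulvestrant (adjusted p = 0.013) and 3.15 ± 1.30 with the combination (0.0023). H2BC6 was higher with fulvestrant (1.44 ± 0.48, adjusted p = 0.014) from 0.964 ± 0.248 CPM in DMSO. H4C5 and H2BC6 could pass the filter on low counts only through treated libraries, so their rises were in part fixed by it. Without DMSO replicate 2 the fulvestrant calls of H4C5 and H2BC6 were lost (adjusted p = 0.101 and 0.0654), and that of H2BC6 also with DESeq2 (0.0646). H2BC4 behaved differently. It had 10.4, 7.22 and 8.06 CPM in DMSO and 15.4, 19.0 and 18.4 with abemaciclib, a log2 fold change of 1.06 ± 0.22 (adjusted p = 0.0003). With fulvestrant (11.4 ± 1.98 CPM) and the combination (9.93 ± 3.06) it did not pass the test, and it was lower in the combination than in abemaciclib (-0.83 ± 0.21, adjusted p = 0.003). H2AC8, H2BC11 and H2BC12 passed in none of the comparisons with DMSO, with means between 1.64 and 5.21 CPM in every group.

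H1-2, a linker histone with the second-highest mean among the replication-dependent genes, changed by less. Its libraries held 247, 245 and 215 CPM in DMSO, 187, 179 and 167 with abemaciclib, 275, 290 and 277 with fulvestrant, and 223, 210 and 212 with the combination. Abemaciclib libraries were below and fulvestrant libraries above DMSO, and the combination overlapped DMSO. It was lower with abemaciclib (-0.41 ± 0.08, adjusted p = 0.00015), higher with fulvestrant (0.25 ± 0.08, 0.0083) and did not pass with the combination (-0.13 ± 0.08, 0.16). Without DMSO replicate 3 the rise with fulvestrant was 0.20 (adjusted p = 0.0567).

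Arranged by their annotated 3′ ends, the 10 genes with a transcript running more than 100 bases past the stem-loop included 7 higher and 0 lower genes with abemaciclib, 8 higher and 0 lower with fulvestrant, and 7 higher and 0 lower with the combination. Neither at an unadjusted p under 0.05 nor with DESeq2 was any of the 10 lower in these comparisons. The median log2 fold change was 0.98, 1.44 and 1.44. H2AX, which has a long end but is not among these 10 genes, was lower in all 3 comparisons (-1.87, -2.20 and -2.37). Among the 12 genes with only short ends, 1 was higher and 8 were lower with abemaciclib, 3 were higher and 6 lower with fulvestrant, and 2 were higher and 6 lower with the combination, with medians of -1.88, -1.31 and -1.48. Over all genes, 20.5% were higher and 20.7% lower with abemaciclib, 25.3% and 25.7% with fulvestrant, and 27.7% and 27.5% with the combination. These counts are a description only. Of the genes with short ends, 4 (H1-4, H2AC14, H1-5 and H2BC7) passed the filter on low counts through DMSO alone. Their fall was therefore in part fixed by the filter. H4C5 and H2BC12, like H2BC6 among the others, could pass only through treated libraries. A rise of these genes was therefore in part fixed as well. H4C11 and, among the others, H2BC11 passed only through DMSO and treated libraries together. The split was not complete. H2BC8 and H4C5 rose without an annotated long end, as did H1-2 with fulvestrant. Conversely, H2BC11 has a long end but passed in no comparison with DMSO, H2BC4 passed only with abemaciclib, H2BC6 only with fulvestrant, and H2BC15 did not pass with abemaciclib. A list of 6 replication-dependent genes reported to give polyadenylated transcripts (H1-2, H2AC6, H2BC4, H2BC5, H2BC12 and H2BC21) held 4 higher and 1 lower with abemaciclib, 4 higher with fulvestrant and 3 higher with the combination, with medians of 0.98, 1.11 and 0.83, to be read against the same shares of all genes.

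**Figure D3:**
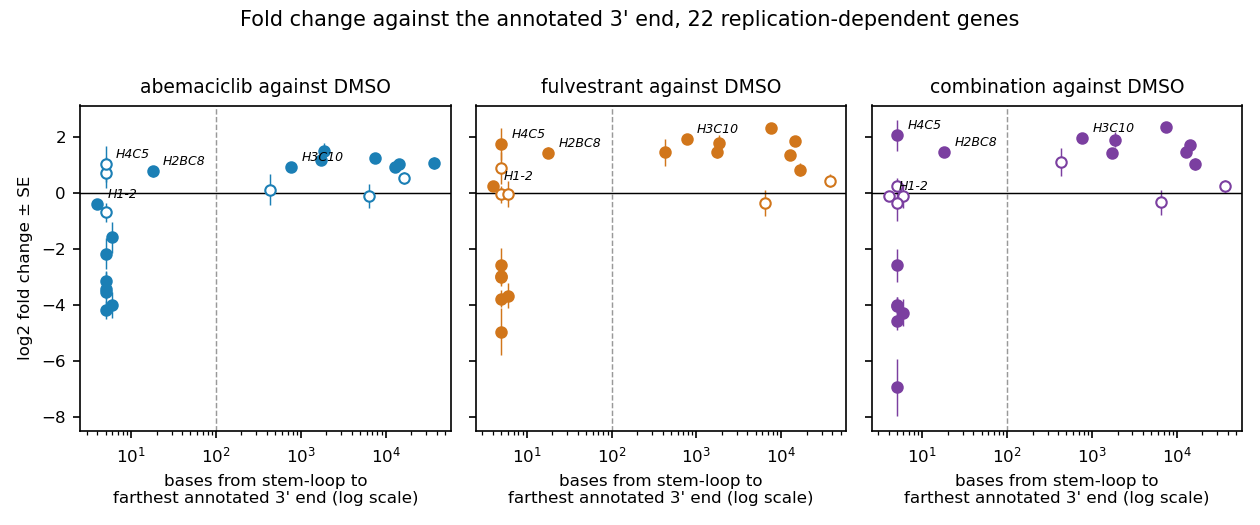
Log2 fold change against DMSO (y axis, ± SE) of the 22 tested replication-dependent genes by the distance from the stem-loop to the farthest annotated 3′ end (x axis, bases, log scale), one panel per treated group. Filled points passed an adjusted p of 0.05 and the dashed line marks 100 bases. H2AX, which has a long end and fell, is not plotted. All points with called falls lie to the left of the line, and the called rises on that side are H2BC8, H4C5 (with fulvestrant and the combination) and H1-2 (with fulvestrant).

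Summed over all 66 genes, replication-dependent histone reads were 1766, 1505 and 1250 CPM in the DMSO libraries, or 1507 ± 258 CPM. The sum was 604 ± 22.5 with abemaciclib, 939 ± 45.5 with fulvestrant and 798 ± 56.1 with the combination, so each treated group lay below DMSO. The direction was set by H4C3 alone. Without it the sum was 469 ± 25.0 in DMSO, 514 ± 29.5 with abemaciclib, 808 ± 46.9 with fulvestrant and 733 ± 44.4 with the combination, that is, 1.10-, 1.72- and 1.56-fold of DMSO. The abemaciclib libraries (481.9 to 539.4 CPM) overlapped those of DMSO (440.9 to 488.2 CPM) in this sum. By family, H4 reads were 1055 ± 235 CPM in DMSO and 124 ± 8.04, 202 ± 51.8 and 138 ± 18.4 with abemaciclib, fulvestrant and the combination. The H3 sum rose from 17.6 ± 1.24 to 35.4 ± 6.11, 65.3 ± 1.71 and 67.2 ± 7.06. H2A reads were 91.0 ± 1.77 in DMSO and 118 ± 6.61, 207 ± 28.2 and 188 ± 16.7 after treatment, and those of H2B 82.9 ± 3.36 and 148 ± 4.00, 183 ± 15.3 and 188 ± 17.8. H1 reads were 260 ± 20.5, 179 ± 10.6, 282 ± 7.95 and 216 ± 6.33 in the 4 groups. The sums were not tested.

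**Figure D4:**
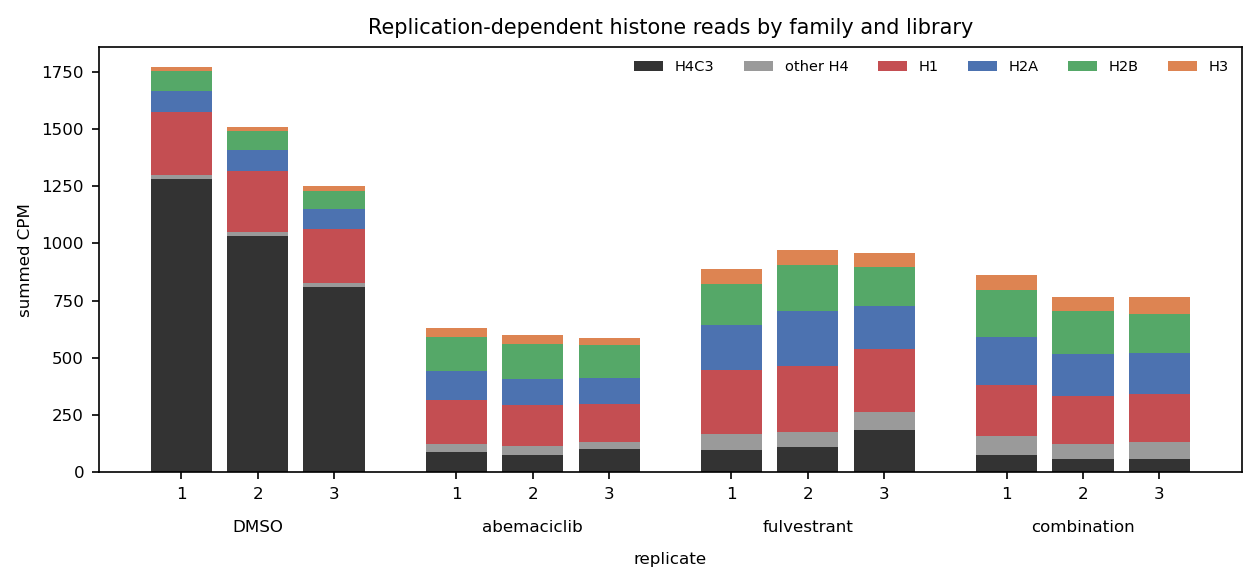
Summed CPM (y axis) of replication-dependent histone genes in each of the 12 libraries (x axis), stacked by histone family with H4C3 apart from the other H4 genes. H4C3 forms most of each DMSO bar, between 64.7 and 72.4% of the reads, and the H2A, H2B and H3 segments are taller in the treated libraries.

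The replication-dependent genes lie in a cluster at chr6:25723397-27893891, with 55 genes of which 20 were tested, and another at chr1:149782689-149887965, with 11 genes of which 2 were tested. Genes that rose and fell were neighbours. In both clusters H2A and H2B genes often start back to back, and in 3 such pairs both genes were tested. The stretches between their starts are given on the plus strand, from the gene on the minus strand to the gene on the plus strand. Capitals mark CCAAT, the octamer ATTTGCAT and TATAAA on either strand. On the minus strand they read ATTGG, ATGCAAAT and TTTATA.
H2BC21 and H2AC20 (chr1:149886683-149886917): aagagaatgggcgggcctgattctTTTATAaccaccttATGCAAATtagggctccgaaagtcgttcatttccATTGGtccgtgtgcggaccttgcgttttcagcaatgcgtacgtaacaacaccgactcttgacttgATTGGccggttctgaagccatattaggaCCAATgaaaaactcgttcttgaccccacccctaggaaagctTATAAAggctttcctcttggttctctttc
H2BC4 and H2AC6 (chr6:26123927-26124144): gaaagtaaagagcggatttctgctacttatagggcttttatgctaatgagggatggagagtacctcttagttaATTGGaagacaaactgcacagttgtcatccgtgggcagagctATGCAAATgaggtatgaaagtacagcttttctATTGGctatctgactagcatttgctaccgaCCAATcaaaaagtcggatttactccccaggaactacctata
H2BC8 and H2AC8 (chr6:26216689-26216920): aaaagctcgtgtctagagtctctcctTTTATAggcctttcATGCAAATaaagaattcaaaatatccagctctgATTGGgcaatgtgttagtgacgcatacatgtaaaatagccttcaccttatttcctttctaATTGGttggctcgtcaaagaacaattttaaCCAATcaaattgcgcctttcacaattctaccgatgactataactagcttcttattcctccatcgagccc
Each stretch held 3 CCAAT and 1 octamer match. H2BC21 rose while H2AC20, which starts 235 bases away, fell with every treatment. H2BC8 rose and H2AC8 did not pass the test. With abemaciclib H2BC4 and H2AC6 both rose, whereas with fulvestrant only H2AC6 passed. In RefSeq promoters (GRCh38.p14, 250 bases before to 50 after the start), CCAAT was found in 86.2% of 65 entries of replication-dependent genes and in 34.6% of all 35116 entries. The octamer occurred in 41.5% and 1.77%, and TATAAA in 67.7% and 11.5%. By family, CCAAT was found in 100% of H1, H2A, H2B and H3 entries, but in only 25% of 12 H4 entries. The octamer was found in 78.9% of H2B and 73.3% of H2A entries and in no H4 entry. These matches describe the sequence and are not evidence of binding.

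The variant genes formed most of the histone reads outside H4C3, and their sum fell from 2711 ± 327 CPM in DMSO to 1538 ± 48.2 with abemaciclib, 1632 ± 45.7 with fulvestrant and 1447 ± 28.5 with the combination. H2AZ1 and H2AZ2 encode the H2A.Z proteins, which are found at promoters and enhancers. H2AZ1 had 921, 1270 and 1400 CPM in DMSO, 671, 723 and 674 with abemaciclib, 430, 463 and 345 with fulvestrant, and 298, 316 and 354 with the combination. The groups were ordered DMSO, abemaciclib and then fulvestrant, which overlapped the combination. Its log2 fold change was -0.80 ± 0.14 with abemaciclib (adjusted p = 0.00091), -1.54 ± 0.15 with fulvestrant (2.8e-06) and -1.89 ± 0.15 with the combination (3.8e-07). H2AZ2 had 634, 702 and 676 CPM in DMSO, 279, 288 and 312 with abemaciclib, 360, 351 and 384 with fulvestrant, and 362, 335 and 321 with the combination. Here abemaciclib was the lowest group. The log2 fold changes were -1.20 ± 0.08 (adjusted p = 9.9e-13), -0.88 ± 0.08 (1.6e-10) and -0.99 ± 0.08 (1.2e-11).

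H1-10, a replication-independent linker histone, had 217, 233 and 240 CPM in DMSO, 75.0, 66.4 and 82.6 with abemaciclib, 134, 114 and 161 with fulvestrant, and 124, 114 and 137 with the combination. All treated libraries lay below DMSO, with log2 fold changes of -1.63 ± 0.11 with abemaciclib, -0.75 ± 0.10 with fulvestrant and -0.88 ± 0.10 with the combination (largest adjusted p = 1.1e-06). An antisense RNA, H1-10-AS1, overlaps the gene, but held at most 2.54 CPM in any library. H3-3B, which encodes histone H3.3, had 473, 530 and 545 CPM in DMSO and 402, 436 and 440 with abemaciclib, a log2 fold change of -0.28 ± 0.08 (adjusted p = 0.0054). With fulvestrant (559 ± 39.5 CPM) and the combination (513 ± 27.8) it overlapped DMSO. H3-3A, which encodes the same protein, was counted at 5.00 ± 0.861 CPM in DMSO, 5.28 ± 1.43 with abemaciclib, 8.65 ± 1.79 with fulvestrant (adjusted p = 0.018) and 8.05 ± 1.08 with the combination (0.034). Both H3.3 genes have processed copies elsewhere in the genome, so their counts are uncertain, as are those of H2AZ1 for the same reason, and the H3-3A calls were lost with DESeq2 (adjusted p = 0.0554 and 0.105) and without DMSO replicate 2 (0.0684 and 0.116). The fulvestrant call was also lost without fulvestrant replicate 2 (0.0714), and that of the combination without DMSO replicate 1 or combination replicate 1 or 2.

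H2AX had 48.4, 49.8 and 42.2 CPM in DMSO, 11.4, 13.2 and 13.9 with abemaciclib, 9.64, 7.90 and 12.5 with fulvestrant, and 10.1, 8.68 and 8.35 with the combination. All treated libraries lay far below DMSO, and the fulvestrant and combination libraries overlapped. The log2 fold changes were -1.87 ± 0.15 with abemaciclib (adjusted p = 1.5e-10), -2.20 ± 0.16 with fulvestrant (6.9e-12) and -2.37 ± 0.16 with the combination (9.9e-13).

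**Figure D5:**
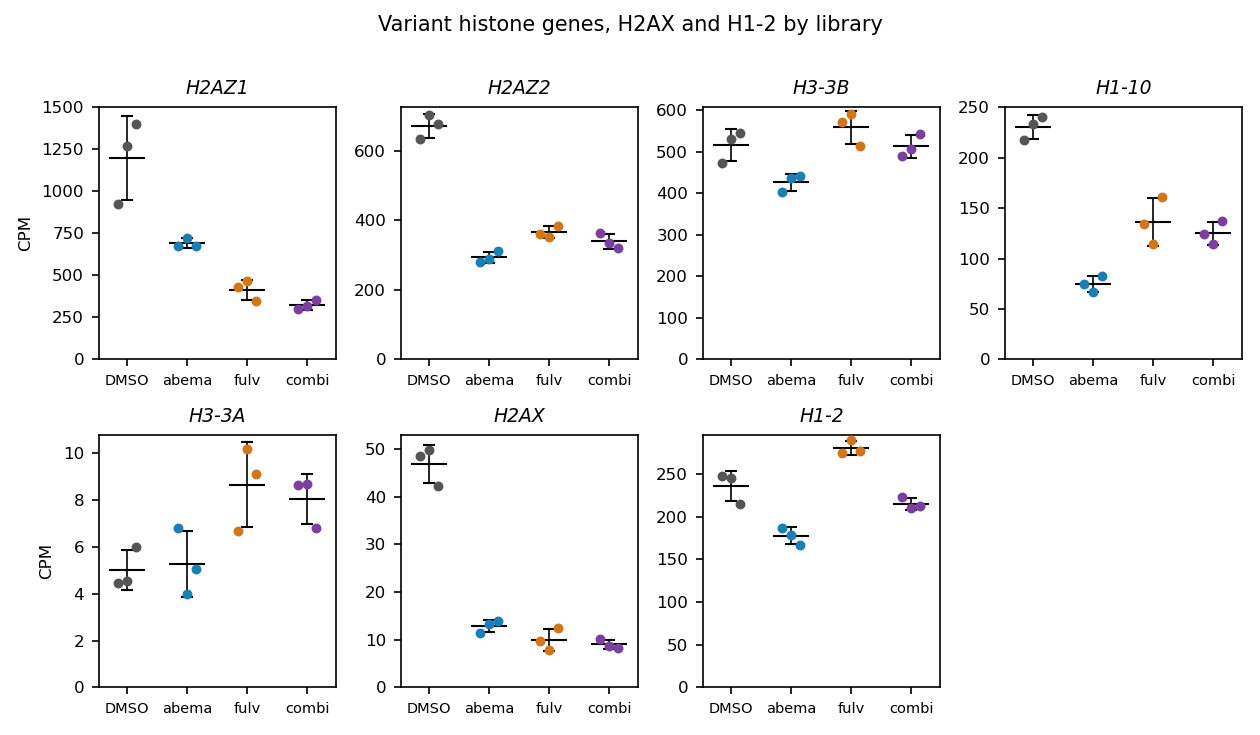
CPM on TMM-scaled library sizes (y axis) of 5 variant histone genes, H2AX and the linker histone H1-2 in each library (points), by group (x axis), with the mean (line) and SD (bars) of 3 libraries. The axes start at 0 and differ between panels. H1-2 lies below DMSO with abemaciclib (178 CPM) and above it with fulvestrant (280 CPM), and H2AX lies below DMSO in every treated group.

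How the drugs acted on top of each other was asked next. Adding fulvestrant to abemaciclib raised 12 of the 29 members (41.4%) and lowered 3 (10.3%), compared with 15.9% and 17.7% of all genes. The rises included H4C8 (1.11 ± 0.13, adjusted p = 8.7e-08), H3C10 (1.03 ± 0.13, 3e-07), H1-10 (0.74 ± 0.11, 6.3e-06) and H2AC6 (0.69 ± 0.09, 1.6e-06). H2AZ1 (-1.10 ± 0.15, adjusted p = 0.00011), H2BC4 and H2AX (-0.51 ± 0.19, 0.039) were lower. The H2AX call was lost without abemaciclib replicate 2 or 3 and without combination replicate 2 or 3, and with DESeq2 (adjusted p = 0.089). H4C11 was higher by 1.47 ± 0.55 (adjusted p = 0.04), a call that did not hold with DESeq2 (0.115) or without abemaciclib replicate 1 or 2 or combination replicate 1 or 3.

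Few genes of any kind were called when abemaciclib was added to fulvestrant, and the histone genes were near that background. No member was higher, against 0.297% of all genes, neither at an unadjusted p under 0.05 nor with DESeq2. H1-2 was lower (-0.38 ± 0.08, adjusted p = 0.004), 1 of the 29 members or 3.45%, against 1.63% of all genes. H4C3 had a log2 fold change of -1.03 ± 0.29 with an adjusted p of 0.17, and its combination libraries lay below its fulvestrant libraries. DESeq2 called it lower (adjusted p = 0.019). Without fulvestrant replicate 3, H2BC12 was called lower as well (-1.72, adjusted p = 0.0228), while over all genes the calls went from 35 higher and 192 lower to 185 and 403.

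Compared directly, fulvestrant gave higher values than abemaciclib in 13 members (44.8%) and lower values in 2 (6.90%), when 13.4% and 15.5% of all genes were called. Higher values were found for H4C8 (1.07 ± 0.13, adjusted p = 2.7e-07), H3C10 (1.00 ± 0.13, 8e-07) and H1-10 (0.87 ± 0.11, 8.3e-07). Lower counts lay behind the larger differences of H4C11 (1.55 ± 0.56, adjusted p = 0.037) and H2BC6 (1.34 ± 0.47, 0.033), and both were lost with DESeq2 (0.0977 and 0.123). The call of H4C11 also did not hold without abemaciclib replicate 1 or 2 or fulvestrant replicate 3, and that of H2BC6 without any single library of either group. H1-2 was 0.66 ± 0.08 higher (adjusted p = 2.5e-07). H2AZ1 (-0.74 ± 0.15, adjusted p = 0.0025) and H2BC4 (-0.63 ± 0.21, 0.025) were lower. The H2BC4 call did not hold with DESeq2 (0.0703), without fulvestrant replicate 3 (0.103) or without abemaciclib replicate 2 (0.0928) or 3 (0.0728).

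Finally, the effect of abemaciclib in the presence of fulvestrant was set against its effect alone by an interaction term. It was positive for 8 members (27.6%) and negative for 8 (27.6%), compared with 9.49% and 11.6% of all genes. Positive values included those of genes that fell with abemaciclib alone and changed less when fulvestrant was present: H1-10 (1.50 ± 0.15, adjusted p = 8.3e-08), H2AZ2 (1.09 ± 0.11, 3.2e-08), H2AX (1.70 ± 0.25, 2e-05), H4C3 (2.50 ± 0.39, 0.0024), H1-4 (3.40 ± 0.71, 0.00091), H2AC20 (2.11 ± 0.63, 0.017) and H2AC14 (3.40 ± 1.07, 0.023). H1-4 and H2AC14 had at most 9 reads in any treated library, and little further fall could be measured from there. Without combination replicate 1 the values of H2AC20 and H2AC14 were 1.12 (adjusted p = 0.33) and 2.93 (0.133), and H2AC14 also did not pass without abemaciclib replicate 2 (0.053) or combination replicate 3 (0.0546). Negative values were found for H2AC6 (-1.16 ± 0.14, adjusted p = 5.5e-07), H4C8 (-1.20 ± 0.20, 5.7e-05), H2BC5 (-0.82 ± 0.15, 0.00027), H2BC21 (-1.20 ± 0.24, 0.00071), H3C10 (-0.91 ± 0.19, 0.0011), H2BC4 (-1.26 ± 0.32, 0.0051), H3C6 (-1.38 ± 0.37, 0.0081) and H2BC8 (-0.73 ± 0.26, 0.042), all of which rose with abemaciclib alone. The value of H2BC8 did not pass with DESeq2 (0.0944) or when any of 8 single libraries was left out.

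The factors that make histone mRNAs were examined as separate lists. Of 7 genes for histone transcription, 4 were lower with abemaciclib, 3 with fulvestrant and 4 with the combination, and none was higher, also at an unadjusted p under 0.05 and with DESeq2. Of all genes 20.7%, 25.7% and 27.5% were lower in these comparisons, so counts over such short lists say little, and single genes are given by their values. E2F1 fell the most of the 7, from 94.6 ± 4.31 CPM in DMSO to 35.4 ± 3.12, 13.1 ± 1.16 and 4.91 ± 1.07. CASP8AP2, a component of the histone locus body, fell from 53.4 ± 9.14 CPM to 26.4 ± 1.90, 27.9 ± 7.19 and 26.0 ± 2.42. POU2F1 was lower in each comparison and YY1 with abemaciclib only, both by less than CASP8AP2. HINFP and CRAMP1 passed in none of these comparisons. NPAT, the cyclin E-CDK2 substrate that activates histone transcription, was 28.9 ± 4.57 in DMSO and passed only with the combination (20.6 ± 3.64, adjusted p = 0.041). Of 11 genes for cutting the 3′ end, 6, 7 and 9 were lower and none was higher, by the same measures. SLBP fell from 42.2 ± 4.15 CPM to 19.8 ± 1.39, 20.9 ± 1.46 and 16.2 ± 1.58, and LSM11, a protein of the U7 particle, from 18.4 ± 1.60 to 12.8 ± 2.82, 6.21 ± 0.537 and 7.32 ± 1.01. The MCM helicase genes and PCNA, which are expressed for S phase, were lower in 7 of 7 cases in each comparison with DMSO, against those same shares of all genes, and their sum fell from between 1030 and 1080 CPM to 337 to 357, 255 to 269 and 180 to 213 CPM. The part of these changes in the histone results was not tested.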

How the data were processed

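Polyadenylated RNA of 12 CAMA-1 libraries (4 groups of 3, taken from the treatment label) was sequenced from the 3′ end. The deposited values were unnormalised read counts, with a row for each gene name. According to the methods and the submitters' processing notes, the authors trimmed reads with BBDuk, aligned them to hg38 with STAR and counted them with featureCounts 2.0.1 on GENCODE. Strand and multimapping settings are not given in the sources used here, and reads are not independent molecules, so floors cover counting error only.

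The 44 rows without a name held 0 reads and were left out. Genes passing edgeR's filterByExpr (minimum count 10, total 15) were kept (11803), and libraries were scaled by TMM. One quasi-likelihood model with 4 group means was fitted to all 12 libraries (edgeR 4.0.16, R 4.3.3) for 6 pairwise comparisons and the interaction, with Benjamini-Hochberg adjustment over all genes and a threshold of 0.05. Standard errors came from the F statistic, and values are CPM as mean ± SD. A gene was at the floor when no library of a group exceeded 3 counts. The script was tested on simulated data. Stem-loops and transcript ends were read from GENCODE v44 on hg38, a later release than the one the authors counted on. An annotated long end may therefore be missing from the annotation behind the counts. Promoters came from RefSeq, where 69 of 75 coding members matched. Alternatives were DESeq2 1.42.0, RLE and upper-quartile factors, no filter, only the groups compared, each library left out, and the replicate number as a block. Members described in full were the variant genes passing the filter, the 12 replication-dependent genes with the highest mean CPM, up to 3 largest rises and falls per comparison, and the reported polyadenylated list. The values of 1 coding member are not reported here, although counts and sums over the members include it. The members and lists were chosen with earlier results of these data known. The authors' replicates are described as biological, and 3 against 3 libraries allow no exact permutation p below 0.1, so p values come from the model.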

Additional observations from a re-analysis of the deposited data

Results flagged for a closer look

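By the interaction term, 15 of the members described responded to abemaciclib differently when fulvestrant was also given (edgeR quasi-likelihood test, adjusted over all genes). Values are on the log2 scale, as the change when abemaciclib was added to fulvestrant less the change when it was added to DMSO. They were positive for H1-10 (1.50), H2AZ2 (1.09), H2AX (1.70), H4C3 (2.50), H1-4 (3.40), H2AC20 (2.11) and H2AC14 (3.40). They were negative for H2AC6 (-1.16), H4C8 (-1.20), H2BC5 (-0.82), H2BC21 (-1.20), H3C10 (-0.91), H2BC4 (-1.26), H3C6 (-1.38) and H2BC8 (-0.73). Over all genes the term was positive for 9.49% and negative for 11.6%. H1-4 and H2AC14 had at most 9 reads in any treated library, so little further fall could be measured. The values of H2AC20, H2AC14 and H2BC8 did not pass when certain single libraries were left out.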

How the results depend on the processing

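Of 109 calls among the members chosen for full description, none changed direction under any alternative. These members include the 1 not reported here and leave out H2BC7. RLE and upper-quartile factors lost 0 calls, DESeq2 lost 11, omitting the filter 8 and fitting only the groups compared 1 (of the 88 calls available to it). Leaving out single libraries lost 56 of 750 values, which belonged to 18 calls. Those not named above were the higher values in the combination than in abemaciclib of H2AZ2 (lost without abemaciclib replicate 1 or 2 or combination replicate 1 or 2), H3-3B (without abemaciclib replicate 1 or combination replicate 3) and H1-2 (without abemaciclib replicate 3), and that of H3-3A in fulvestrant over abemaciclib (without abemaciclib or fulvestrant replicate 2 or 3, with DESeq2, adjusted p = 0.121, and with no filter, 0.086). The H2AZ2 call was also lost with no filter (0.0737). After each group's mean log2 CPM was subtracted, same-numbered libraries of different groups correlated between -0.215 and 0.119. No pairing by replicate number was therefore seen, although with 3 libraries per group a weak one could be missed. With the replicate number as a block, 1 call was lost (H3-3A, fulvestrant against abemaciclib) and members called higher in that comparison went from 13 to 12. The same block gave 8 and 14 calls with abemaciclib, 13 and 10 with fulvestrant and 11 and 10 with the combination against DMSO. Counts that moved by over 1.5 times were those of members lower in the combination than in abemaciclib (3, and 5 when only these groups were fitted), lower in the combination than in fulvestrant (1, 2 with DESeq2 and 1 to 2 when leaving out a library, the higher without fulvestrant replicate 3) and lower in fulvestrant than in abemaciclib (2, 1 with DESeq2 and 1 to 2 when leaving out a library, the lower without abemaciclib replicate 2 or 3 or fulvestrant replicate 3). Summed replication-dependent CPM without H4C3 was 469 in DMSO, 514 with abemaciclib, 808 with fulvestrant and 733 with the combination. The cause of these moves was not tested. At this depth 3 counts equal 0.57 to 0.89 CPM, and genes near that level are limited by counting error.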
